A study of Mus musculus with 15 samples.

Results

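Interferon-stimulated genes were followed by name in RNA-seq count tables of cultured mouse retinal pigment epithelium cells (mRPE) and of mouse RPE/choroid, with and without Prom1. The list held 41 names, of which Ddx58 is the older symbol of Rigi, so it covered 40 genes. All 40 had a row in the mRPE table of 20910 genes and in the RPE/choroid table of 25038 genes, and all 40 passed the filter on low counts (at least 5 counts in at least 3 libraries) in every comparison. The names were taken as a known gene set and not from a contrast of these libraries, though with earlier results of these data known. By role they are 9 sensors (Ifih1, Rigi, Dhx58, Oas1a, Oas2, Oas3, Oasl1, Oasl2, Zbp1), 4 transcription factors (Irf1, Irf7, Irf9, Stat2), 9 blockers of translation and replication (Ifit1, Ifit2, Ifit3, Mx1, Mx2, Rsad2, Ifi35, Ifi44, Cmpk2), 6 genes of the ubiquitin and ISG15 system (Isg15, Usp18, Xaf1, Dtx3l, Trim25, Trim30a), 3 ADP-ribosyltransferases (Parp9, Parp12, Parp14), 5 interferon-inducible GTPases (Gbp2, Gbp3, Gbp7, Igtp, Irgm1) and 4 membrane or secreted proteins (Ifitm3, Bst2, Lgals3bp, Rtp4).

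The mRPE cells were primary RPE cells pooled from adult C57/BL6J mice and immortalised with a lentivirus for HPV E6/E7. Groups were WT (4 libraries) and the Prom1-KO clones KO22 (3 libraries) and KO26 (2 libraries), which were made from cells stably carrying lentiviral Cas9 under puromycin selection by a guide RNA against exon 5 of Prom1. Each knockout group is therefore 1 clone, and whether the WT libraries came from cells with Cas9 and a scrambled guide is not given in the sources used here. The library names carry 2 prefixes, which the study treats as sequencing batches, and whether culture or extraction also differed between them is not given in the sources used here. Batch 8995 holds 1 library of each group, and batch 9262 holds the remaining 3 of WT, 2 of KO22 and 1 of KO26. The RPE/choroid libraries (3 WT and 3 Prom1-KO, all of batch 12965) came from Prom1 fl/fl mice crossed with RPE65-Cre and gavaged with tamoxifen. The cross is meant to target the gene in the RPE, and whether other cells of the dissected tissue changed was not tested. The ages of these mice are not given in the sources used here.

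Cells make type I interferon when sensors such as RIG-I (Rigi), MDA5 (Ifih1) and cGAS meet viral or misplaced nucleic acid. Interferon then acts through its receptor and the kinases JAK1 and TYK2 to form a complex that holds STAT2 and IRF9 and binds the interferon-stimulated response element (ISRE) in the promoters of many genes. The products block viral translation and replication, tag proteins with ISG15, raise the amount of the sensors and of IRF7, and, through USP18, damp the receptor. In the RPE, as in most epithelia, a low tonic level of these genes is usual without infection.

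Promoter sequences are shown for some of the members whose promoter held the ISRE core given below. The 250 bases before the annotated start were read from GRCm39 for all 40 genes and for 21770 protein-coding genes. The ISRE core GAAANNGAAA was searched on both strands, with overlapping matches counted. It was present in 13 of the 40 promoters (32.5%) and in 723 of all promoters (3.32%). The core TTCNNNGAA of the gamma-activated site (GAS) was present in 6 of the 40 (15%) and in 7.7% of all promoters, and in 2 of those 6 it overlapped an ISRE match. In the windows of 70 bases below, written 5′ to 3′ on the strand of the gene, capitals mark bases of an ISRE match, and capital runs that begin with TTTC are the core read from the other strand.
Isg15 (chr4:156285308-156285377, minus strand): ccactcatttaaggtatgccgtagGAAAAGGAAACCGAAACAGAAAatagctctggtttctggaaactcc
Ifit1 (chr19:34618164-34618233, plus strand): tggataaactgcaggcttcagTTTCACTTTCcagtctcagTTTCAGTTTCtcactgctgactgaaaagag
Ifit3 (chr19:34560760-34560829, plus strand): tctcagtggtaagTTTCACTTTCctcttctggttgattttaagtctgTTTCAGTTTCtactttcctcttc
Usp18 (chr6:121222764-121222833, plus strand): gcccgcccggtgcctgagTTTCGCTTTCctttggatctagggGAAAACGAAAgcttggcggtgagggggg
Bst2 (chr8:71990204-71990273, minus strand): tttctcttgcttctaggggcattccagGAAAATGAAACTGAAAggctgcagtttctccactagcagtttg
Oas3 (chr5:120915760-120915829, minus strand): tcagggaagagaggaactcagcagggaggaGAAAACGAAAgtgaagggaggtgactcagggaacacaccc
Stat2 (chr10:128106115-128106184, plus strand): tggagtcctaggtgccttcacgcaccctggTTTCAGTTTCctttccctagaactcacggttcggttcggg
Zbp1 (chr2:173060749-173060818, minus strand): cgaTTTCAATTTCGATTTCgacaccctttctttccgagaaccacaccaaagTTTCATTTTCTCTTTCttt
Isg15 carried 3 overlapping matches whose first bases lay 38 to 50 bases before the start, and Zbp1 carried 4 at 37 to 91 bases. Single matches lay 70 bases before the start of Oas3 and 207 bases before that of Stat2. The other members with a match were Oas2, Rsad2, Irgm1, Trim30a and Rtp4. The letters GAAANNGAAA were not found in this window of Trim25, Mx1, Oasl1, Ifi44 or Irf7.

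Total counts were 8076188 to 27537863 per mRPE library and 48154444 to 61766179 per RPE/choroid library. Levels are given as CPM, the count of a gene scaled to the TMM-adjusted size of its library, and log2 fold changes come from edgeR's quasi-likelihood test. A gene is called higher or lower where the Benjamini-Hochberg adjusted p lies below 0.05 and its log2 fold change lies beyond 1.2 in that direction. The labelled cell type was checked against markers. In mRPE, 4 of 10 RPE markers (Mitf, Pmel, Rdh5 and Best1) were counted, with summed levels of 8.17 to 39.95 CPM, and no lymphocyte marker was. Macrophage markers (4 of 12 counted) summed to 11.4 to 15.02 CPM in WT, 25.5 to 33.9 CPM in KO22 and 15.7 to 17.3 CPM in KO26, and Cd14 of that list was called higher in KO22. Endothelial markers (5 counted) summed to 153 to 236 CPM in WT, 3.49 to 5.399 CPM in KO22 and 56.7 to 74.1 CPM in KO26, and of that list Kdr and Tek were called lower and Plvap higher in KO22. Fibroblast and pericyte markers (7 counted) summed to 8021 to 10849 CPM in WT, 4172 to 6914 CPM in KO22 and 12385 to 13402 CPM in KO26. The part of these markers in the results was not tested. Prom1 itself was not analysed here in mRPE.

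The WT library of batch 8995 stood apart from the rest before any clone was compared, with the interferon-stimulated genes far below their level in the other mRPE libraries. Summed over the 40 genes, it held 1914 CPM, while the WT libraries of batch 9262 held 5689, 6652 and 6606 CPM. The KO22 libraries held 3960 CPM in batch 8995 and 9169 and 6239 CPM in batch 9262, and the KO26 libraries 5721 CPM in batch 8995 and 9815 CPM in batch 9262. The lowest value of each group was thus its library of batch 8995, and the WT library of that batch was the lowest of all. Its total count, 27537863, was the highest among the mRPE libraries.

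**Figure D1:**
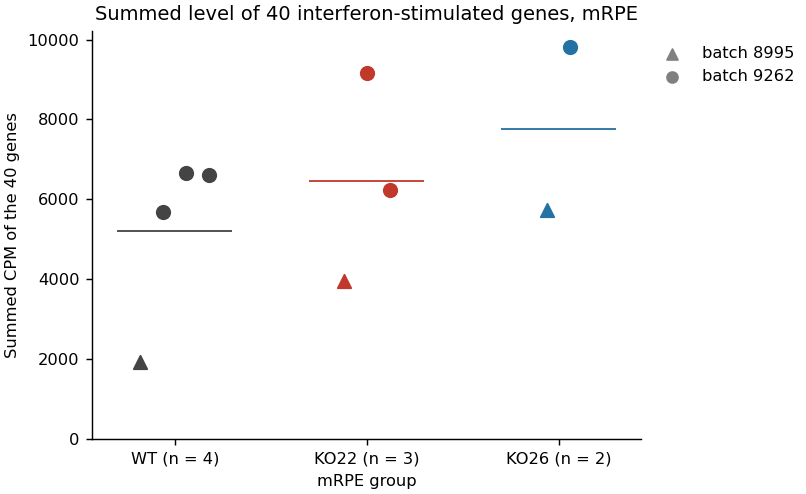
Summed CPM of the 40 interferon-stimulated genes (y axis, from 0) in each mRPE library of WT, KO22 and KO26 (x axis). Triangles are libraries of batch 8995, circles are libraries of batch 9262 and lines are group means. The WT library of batch 8995 lies at 1914 CPM, and the other 8 libraries lie between 3960 and 9815 CPM.

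All 40 genes were lower in this library than in each WT library of batch 9262, against 35.7% of all genes in the table. In 37 of the 40 it was the lowest of all 9 mRPE libraries, against 7.18% of all genes, and the exceptions were Oas3, Ifitm3 and Trim25. In a fit with 1 mean per group and batch over the 9 libraries, chosen after seeing the data, 34 of the 40 were called lower in WT of batch 8995 than in WT of batch 9262 and 0 were called higher, against 4.73% and 1.84% of all genes tested. The median log2 difference was -2.13 for the 40 genes and -0.02 for all genes. The lone library was there assumed to vary like the replicated groups. The 6 members that were not called were Rigi, Irf1, Parp9, Parp12, Ifitm3 and Trim25.

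By role, the blockers of translation and replication showed the widest gap. Mx1, a gene of the Mx GTPase family, measured 0.238 CPM (6 counts) in WT of batch 8995. In WT of batch 9262 it measured 17.6, 24.3 and 26.8 CPM, a log2 difference of -6.54 ± 0.43 (SE). Ifit3 measured 17.8 CPM against 227, 335 and 342 CPM (-4.08 ± 0.26). Ifit1, which holds back translation of foreign RNA, measured 23.6 CPM against 220.0, 289 and 268 CPM (-3.45 ± 0.22). All 9 genes of this role were called lower in that library, with a median log2 difference of -3.45. For each of these 3 genes the single library lay below every other mRPE library.

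Of the 9 sensors, 8 were called lower in WT of batch 8995, with a median log2 difference of -2.89. Oas2, an oligoadenylate synthetase that starts RNA decay by RNase L, measured 19.0 CPM against 201, 211 and 276 CPM. Oasl1, a relative of the oligoadenylate synthetases that restrains translation of Irf7, had 3 counts in this library (0.119 CPM, exact Poisson 95% interval 0.0246 to 0.348 CPM for counting error only) and 1.92, 2.36 and 2.87 CPM in batch 9262. The mean of the latter was 20.0 times the former, with a counting interval of 6.84 to 96.9. Dhx58, the RIG-I-like helicase LGP2, measured 7.19 CPM against 47.6, 52.3 and 60.1 CPM. Sensors and blockers thus shared the direction. Rigi, the sensor that was not called, was also lower, with 129 CPM against 270.0, 319 and 278 CPM, and missed the fold limit.

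The transcription factors followed with smaller gaps. Irf7, the factor that amplifies interferon transcription, measured 5.44 CPM against 23.6, 30.0 and 35.7 CPM (-2.45 ± 0.24). Irf9, the DNA-binding subunit of the complex with STAT2, measured 22.7 CPM against 61.1, 67.7 and 71.6 CPM (-1.56 ± 0.16), and Stat2 81.1 CPM against 229, 238 and 267 CPM (-1.59 ± 0.18). Irf1, which is induced most by interferon gamma, measured 57.8 CPM against 78.0, 76.3 and 85.6 CPM, a difference that did not reach the fold limit. All 5 interferon-inducible GTPases (Gbp2, Gbp3, Gbp7, Igtp, Irgm1) were called lower. Bst2 (tetherin), Lgals3bp and Rtp4 were called lower among the membrane and secreted proteins, and 1 of the 3 ADP-ribosyltransferases (Parp14) was.

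**Figure D2:**
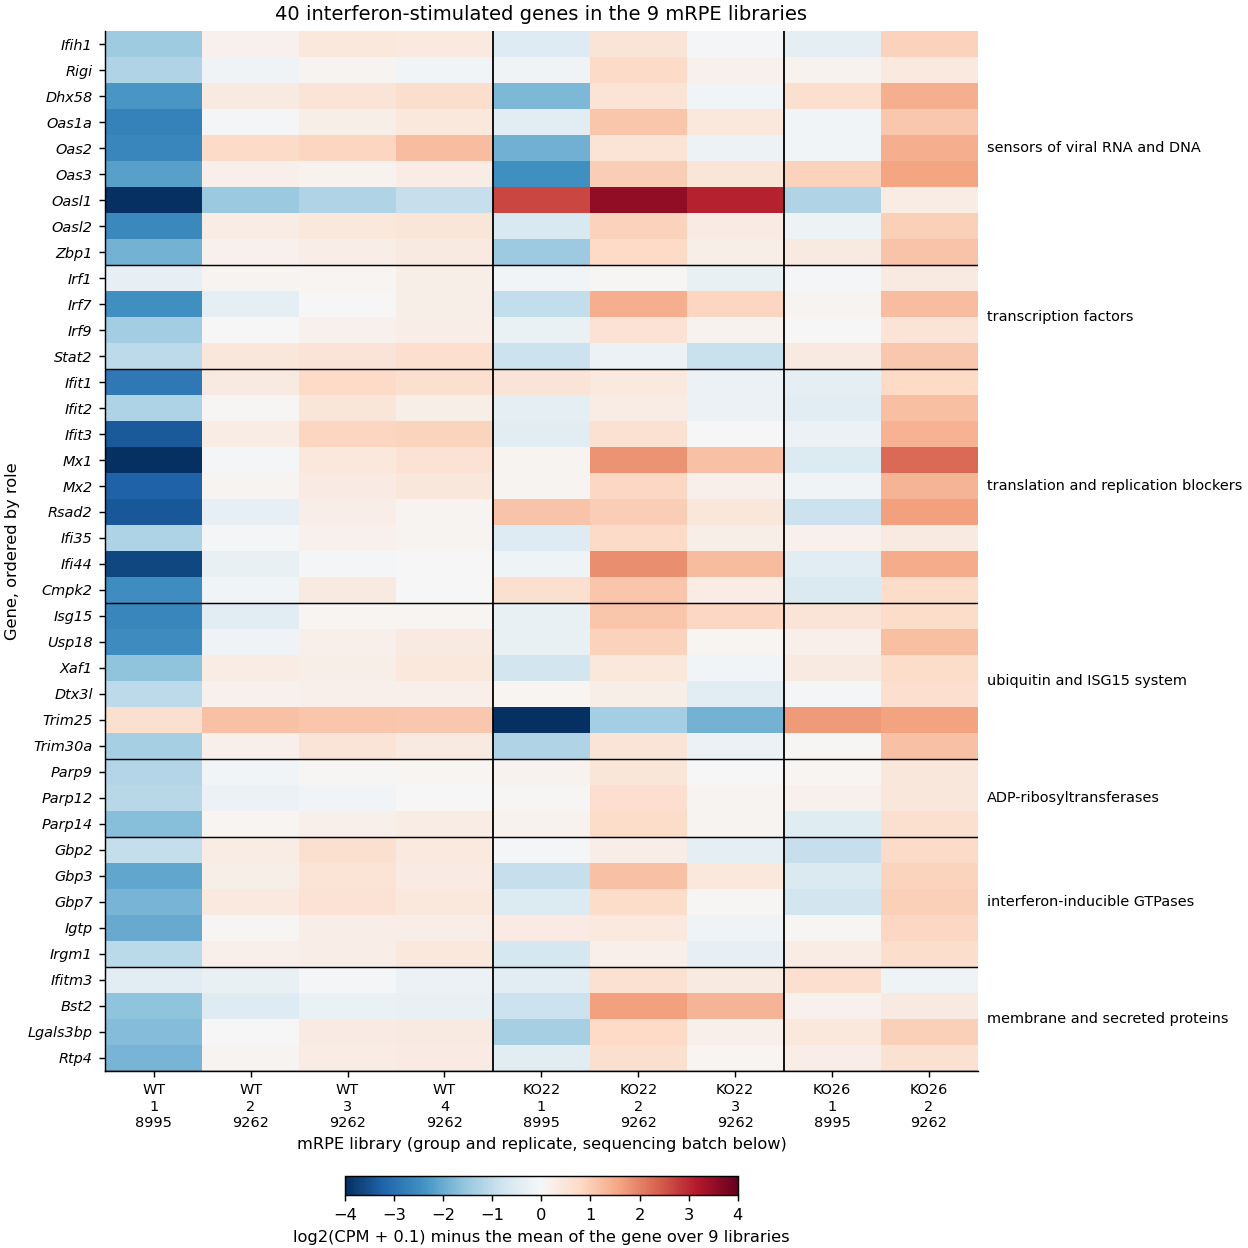
Heat map of the 40 genes (rows, grouped by role) in the 9 mRPE libraries (columns, with group, replicate and batch). Colour is log2(CPM + 0.1) minus the mean of the gene over the 9 libraries. The first column, the WT library of batch 8995, is the lowest for 37 of the 40 genes, Oasl1 is highest in the 3 KO22 libraries and Trim25 is lowest there.

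The same contrast of batches was smaller inside the clones. Within KO22, 15 of the 40 were called lower in batch 8995 (4.65% of all genes), with a median log2 difference of -0.86. Within KO26, 13 of the 40 were (6.39% of all genes), with a median of -0.91. Irf1 is an example of a gene with little difference in KO22, at 66.9 CPM in batch 8995 and 74.4 and 58.7 CPM in batch 9262. Oas3 is one with a large difference, at 24.6 CPM against 270.2 and 190.0 CPM.

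Genes outside the 40 were counted from fixed lists. Of 46 other interferon-stimulated genes, 36 were called lower in WT of batch 8995 and 0 higher, against 4.73% and 1.84% of all genes tested. Their median log2 difference was -1.94. Among 21 tested genes of nucleic acid sensing and interferon induction 4 were called lower (Ifi204, Adar, Tlr3 and Ikbke). None of the receptor chains or kinases listed was called. Of the interferon ligands listed, Ifnk alone was counted in mRPE, at 1.23 CPM in this library and 1.23, 1.08 and 1.65 CPM in the other WT libraries, which overlap.

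KO22 was compared with WT to ask what changed in the clone that was kept for the study's own RNA-seq comparison, in 7 libraries with the batch as a term. Among the 40 genes, 8 were called higher (11.4% of all genes tested) and 1 lower (13.8% of all genes tested). The median log2 fold change was 0.51 for the members against -0.03 for all genes. The called genes were Oasl1, Ifi44, Mx1, Rsad2, Bst2, Isg15, Cmpk2 and Irf7 (higher) and Trim25 (lower). Without the WT library of batch 8995, 4 were called higher (Oasl1, Bst2, Ifi44 and Irf7) and Trim25 lower, and the median was 0.25.

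Oasl1 (chromosome 5, 115061294 to 115075974, GRCm39) rose in KO22 by the largest amount among the 40. It measured 35.9 CPM in batch 8995 and 65.7 and 47.4 CPM in batch 9262, against 0.119, 1.92, 2.36 and 2.87 CPM in WT. Every KO22 library lay above every WT library. That held for 3 of the 40 members, Oasl1, Rsad2 and Parp12, against 24.5% of all genes. The log2 fold change of Oasl1 was 5.12 ± 0.43 (SE, adjusted p = 1.39e-05). Leaving out each library in turn gave 4.56 to 5.44. Per kilobase of exon, its level ranked 40 of 40 among the members in WT and 25 of 40 in KO22.

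Trim25 (chromosome 11, 88890202 to 88911122), the ubiquitin ligase that acts with RIG-I, fell by 3.14 ± 0.33 on the log2 scale (adjusted p = 4.81e-05). It measured 2.16, 14.5 and 9.85 CPM in KO22 and 57.7, 83.6, 79.5 and 77.6 CPM in WT. For Trim25, alone among the 40 genes (25.1% of all genes), the highest KO22 library lay below the lowest WT library. It was the one member called lower in KO22, and its level per kilobase ranked 29 of 40 in WT and 40 of 40 in KO22.

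Ifi44, a cytoplasmic protein with antiviral activity, rose by 2.21 ± 0.32 on the log2 scale. It measured 215, 868 and 571 CPM in KO22 and 19.0, 196, 229.6 and 238 CPM in WT, so the KO22 library of batch 8995 lay within the WT range. Bst2, which tethers budding virions to the membrane, measured 70.9, 402 and 328 CPM in KO22 and 41.9, 90.6, 108 and 103 CPM in WT (1.55 ± 0.20). Irf7 measured 15.3, 83.4 and 55.6 CPM against 5.44, 23.6, 30.0 and 35.7 CPM (1.29 ± 0.19). In all 3 genes the batch 9262 libraries of KO22 lay above all WT libraries and that of batch 8995 did not.

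The other calls in KO22 rested more on the libraries of batch 8995. Isg15, the ubiquitin-like modifier itself, measured 15.6, 41.6 and 34.1 CPM in KO22 and 3.06, 13.8, 20.2 and 20.2 CPM in WT (1.40 ± 0.25), and 1.07 was the lowest log2 fold change with a library left out. Mx1 measured 19.5, 62.7 and 41.1 CPM in KO22 (2.00 ± 0.62, adjusted p = 0.022). Rsad2 (viperin), a radical SAM enzyme that makes a chain-terminating nucleotide, measured 140.4, 126 and 86.5 CPM against 5.92, 50.1, 75.4 and 68.0 CPM in WT (1.70 ± 0.64, adjusted p = 0.047), with no overlap between the groups. Its neighbour Cmpk2, a mitochondrial nucleotide kinase, measured 75.1, 104 and 59.4 CPM against 8.54, 44.6, 61.0 and 48.3 CPM (1.35 ± 0.43). Once that WT library was left out, Isg15, Mx1, Rsad2 and Cmpk2 were not called, because their log2 fold changes of 1.07, 1.18, 0.72 and 0.68 lay under the fold limit, while the adjusted p stayed at or below 0.000732. The counts of members called higher were also 4 without WT replicate 2, 4 without KO22 replicate 2 and 5 without KO22 replicate 1.

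**Figure D3:**
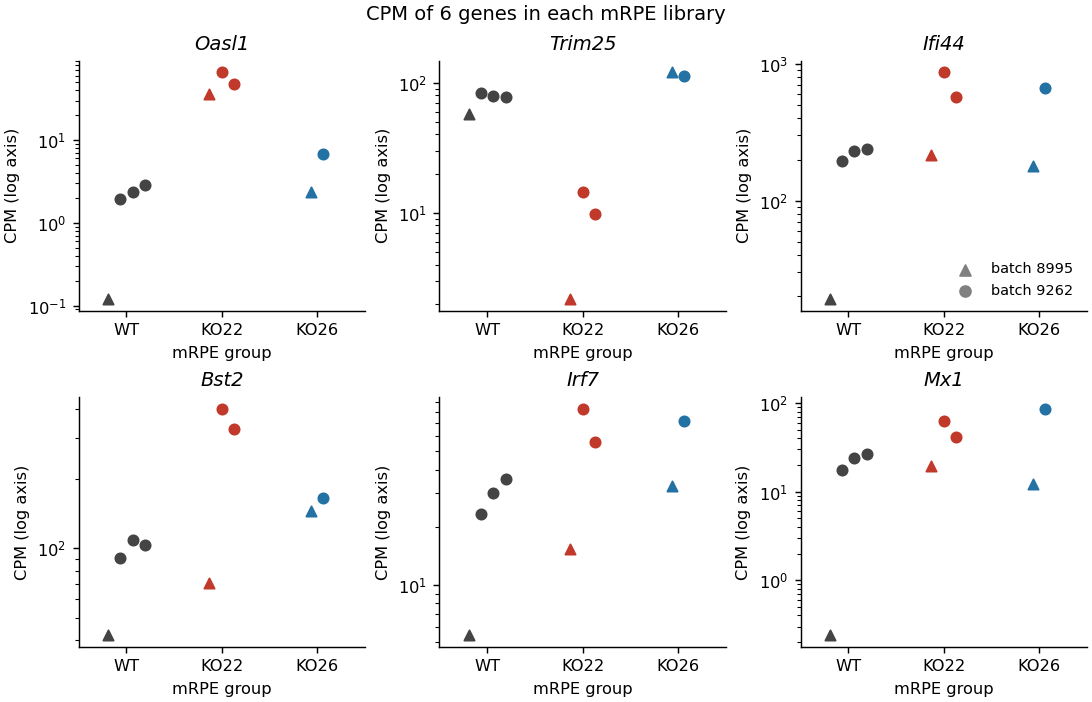
CPM (log axes) of Oasl1, Trim25, Ifi44, Bst2, Irf7 and Mx1 in each mRPE library of WT, KO22 and KO26. Triangles are libraries of batch 8995 and circles of batch 9262. Oasl1 lies at 35.9 to 65.7 CPM in KO22 against at most 6.82 CPM elsewhere, and Trim25 at 2.16 to 14.5 CPM in KO22 against at least 57.7 CPM elsewhere.

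Within batch 8995, 18 of the 40 were called higher in KO22 than in WT (10.3% of all genes) and 1 lower (Trim25), and within batch 9262, 4 were called higher (13.2% of all genes) and 1 lower. For lower calls the shares of all genes were 12.9% within batch 8995 and 15.4% within batch 9262. Called higher within both batches were Ifi44, Irf7 and Oasl1, and Trim25 was called lower within both. Batch 8995 holds 1 library a group, so its values compare single libraries, with their spread taken from the other groups, and they all use the WT library that was low in the 40 genes. The difference between the batches was itself called for 21 members, 20 of them with a larger KO22 value in batch 8995 (5.08% of all genes) and Trim25 with a smaller one (5.93% of all genes). Rsad2 shows the contrast, with a log2 fold change of 4.57 within batch 8995 and 0.74 within batch 9262. For Ifit1 the values were 3.37 and -0.48, and the second was under the fold limit. Of the 40 genes, 23 had the same sign within both batches.

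KO26, the clone that the study left out of its comparison, was compared with WT in one fit over the 9 mRPE libraries. All 40 genes had a positive log2 fold change (38 without the WT library of batch 8995), and 7 were called higher (1.21% of all genes tested) and 0 lower (0.719% of all genes tested). The median was 0.96 for the members and 0.03 for all genes. The called genes were Oas3, Ifi44, Irf7, Dhx58, Isg15, Zbp1 and Lgals3bp. KO22 and KO26 were compared with the same WT libraries, so their values are given side by side and are not independent of each other.

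Oas3, the oligoadenylate synthetase that prefers long double-stranded RNA, measured 257 and 402 CPM in KO26 and 29.9, 158, 151 and 169 CPM in WT, without overlap (2.36 ± 0.42, adjusted p = 0.0171). Ifi44 measured 179 and 665 CPM (2.06 ± 0.36), and the lower value lay within the WT range. Irf7 measured 32.8 and 71.9 CPM (1.85 ± 0.29), of which the lower again lay within the WT range. Dhx58 measured 57.4 and 102 CPM (1.80 ± 0.37) and Isg15 27.1 and 31.6 CPM (1.72 ± 0.41), the latter without overlap with WT. Zbp1, a sensor of Z-form nucleic acid that can start necroptosis, measured 125 and 215 CPM against 26.3, 109, 118 and 126 CPM in WT (1.52 ± 0.28). Lgals3bp, a secreted glycoprotein, measured 453 and 645 CPM against 101, 329, 417 and 434 CPM (1.41 ± 0.30, adjusted p = 0.0337). Oas3, Isg15 and Lgals3bp thus had KO26 libraries above all WT libraries, while Ifi44, Irf7, Dhx58 and Zbp1 had 1 library inside the WT range. Among the 40 genes, 7 lay above WT in this way (11.9% of all genes) and 0 below (12.7% of all genes). The 7 include Rigi, Parp12, Bst2 and Trim25, which were not called.

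These 7 calls depended on single libraries. Without the WT library of batch 8995, 3 members were called higher (Irf7, Mx1 and Ifi44), and the median was 0.60. Without KO26 replicate 1, 0 were called, with 16 members at an unadjusted p under 0.05. The count was 1 without WT replicate 2, 1 without WT replicate 3, 2 without WT replicate 4 and 12 without KO26 replicate 2. Within batch 8995, 32 of the 40 were called higher in KO26 (3.24% of all genes), and within batch 9262, 6 were (2.06% of all genes), namely Irf7, Oas3, Oasl1, Mx1, Rsad2 and Ifi44. All 6 were among the 32, and all 40 genes had the same sign within both batches. The difference between the batches was called for 18 members, all with a larger value in batch 8995 (0.55% of all genes).

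**Figure D4:**
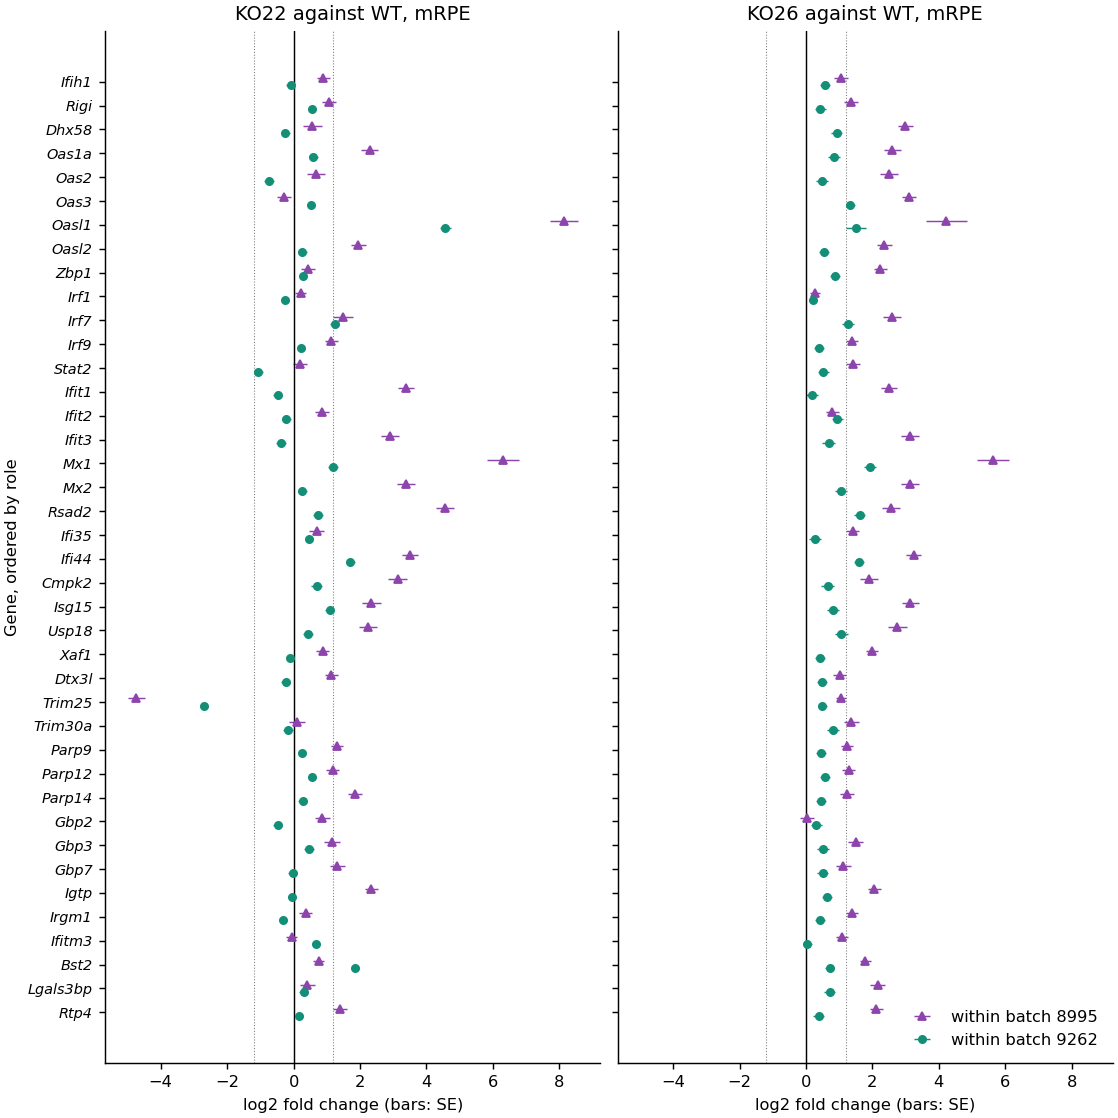
Log2 fold change with SE (x axis) of each of the 40 genes (y axis, ordered by role) for KO22 against WT (left) and KO26 against WT (right). Purple triangles are values within batch 8995 and green circles within batch 9262, and dotted lines mark the fold limit of 1.2. In KO26, 32 genes were called higher within batch 8995 and 6 within batch 9262, and in KO22, 18 and 4.

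In batch 9262, where WT had 3 libraries, Oasl1 differed from WT by 4.57 ± 0.17 in KO22 and 1.52 ± 0.30 in KO26. Ifi44 differed by 1.70 ± 0.13 and 1.59 ± 0.16, and Irf7 by 1.23 ± 0.15 and 1.27 ± 0.18. These 3 were called in both clones within that batch, in which KO26 had 1 library. Bst2 differed by 1.86 ± 0.10 in KO22 and by 0.71 ± 0.13, under the fold limit, in KO26. Mx1 differed by 1.93 ± 0.18 in KO26 and by 1.196 ± 0.15 in KO22, which was not called.

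The clones differed from each other in 7 members. KO22 was higher than KO26 in 1 (7.56% of all genes tested), Oasl1, and lower in 6 (10.7% of all genes tested). The median over the 40 genes was -0.38, against 0.00 for all genes. Oasl1 measured 35.9, 65.7 and 47.4 CPM in KO22 and 2.37 and 6.82 CPM in KO26 (3.39 ± 0.51, adjusted p = 0.000633). Trim25, at 119.9 and 113 CPM in KO26, was lower in KO22 by a log2 fold change of -4.004 ± 0.42 (adjusted p = 7.24e-05). For both genes the clones did not overlap. Every KO22 library lay above every KO26 library in 1 of the 40 genes (23.3% of all genes) and below in 4 (24.5% of all genes).

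The other 5 members lower in KO22 than in KO26 were 4 sensors (Oas2, Oas3, Dhx58 and Zbp1) and Stat2. Stat2 measured 92.9, 142 and 91.4 CPM in KO22 and 216 and 352 CPM in KO26, without overlap (-1.48 ± 0.28, adjusted p = 0.00228). Dhx58 measured 10.6, 54.3 and 34.1 CPM in KO22 and 57.4 and 102 CPM in KO26 (-1.92 ± 0.38). Oas2 measured 30.6, 171 and 102 CPM in KO22 and 108 and 320.4 CPM in KO26, which overlap (-1.64 ± 0.39). For Oas3 the log2 fold change was -2.03 ± 0.45 and for Zbp1 it was -1.22 ± 0.29. Without KO26 replicate 1, Oas2, Oas3, Dhx58 and Zbp1 were not called and 2 members, Trim25 and Stat2, were lower. Without KO26 replicate 2, 10 members were.

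Other genes of the pathway were counted from the fixed lists. In KO22 against WT, none of 15 tested receptor and JAK-STAT genes was called higher and 1, Ifngr1, was called lower (-1.21 ± 0.12). Of 21 genes of nucleic acid sensing and interferon induction, 4 were called higher (Tlr7, Aim2, Cgas and Rnaseh2b) and 0 lower. The shares of all genes tested were 11.4% called higher and 13.8% called lower. Cgas, the cytosolic DNA sensor, measured 38.0, 63.8 and 56.2 CPM in KO22 and 8.90, 6.72, 6.97 and 7.18 CPM in WT (2.80 ± 0.19). Aim2, which assembles an inflammasome on DNA, measured 15.3, 10.4 and 14.4 CPM against 0.636, 0.686, 0.884 and 0.933 CPM (4.10 ± 0.25). Tlr7, an endosomal sensor of single-stranded RNA, measured 8.13, 8.003 and 6.91 CPM against 0.0397, 0, 0 and 0.144 CPM, and no fold is given for so few reads in WT. In these 3 genes no KO22 library overlapped with WT, and every KO22 library lay above every WT library in 24.5% of all genes. The WT library of batch 8995 was the highest of WT for Cgas and the lowest for Aim2.

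Among 46 other interferon-stimulated genes, 6 were called higher in KO22 (11.4% of all genes tested), led by Cxcl10, Nlrc5, Slfn2, Apol9b and Phf11b. Called lower were 3, Epsti1, Ifitm1 and Gbp4 (13.8% of all genes tested), and the median was 0.10. Cxcl10, a chemokine for activated T cells, measured 499.7, 1388 and 899 CPM in KO22 and 14.7, 135, 240.3 and 194 CPM in WT (3.28 ± 0.46). Nlrc5, the transactivator of MHC class I genes, measured 65.4, 134 and 102 CPM against 3.89, 27.0, 34.0 and 40.1 CPM (2.40 ± 0.37). Ifitm1, which blocks viral entry, measured 3.805, 7.18 and 5.74 CPM against 34.1, 44.4, 40.4 and 38.5 CPM (-2.79 ± 0.16). The 3 genes named had no overlap between KO22 and WT, and they moved in both directions. Such separation was common, with 24.5% of all genes above and 25.1% below WT in every KO22 library.

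In KO26 against WT, 3 of the 46 were called higher (Cxcl9, Phf11b and Apol9b) and 0 lower, against 1.21% and 0.719% of all genes tested. Their median was 0.81, and none of the receptor or sensing genes was called. Ifnk, a type I interferon of epithelia, was the one ligand counted in mRPE and was called lower in both clones. It measured 0.173, 0.241 and 0.233 CPM in KO22 and 0.232 and 0.231 CPM in KO26, against 1.23, 1.23, 1.08 and 1.65 CPM in WT. All 5 knockout libraries lay below all 4 WT libraries. The log2 fold change was -2.53 ± 0.41 in KO22 and -2.39 ± 0.49 in KO26, at a few reads per knockout library.

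The members were also described by whether the 250 bases before the start held an ISRE match. In KO22 against WT the median log2 fold change was 0.50 for the 13 genes with a match and 0.55 for the 27 without, and in KO26 against WT 1.21 and 0.84. Between the WT libraries of batches 8995 and 9262 the medians were -2.41 and -1.93, with 13 of 13 and 21 of 27 genes called lower. In KO22 against KO26 they were -0.75 and -0.29, with 4 of 13 and 2 of 27 called lower. Within batch 8995 they were 2.498 and 1.40 for KO26 against WT, and 0.76 and 1.15 for KO22 against WT. Within batch 9262 they were 0.71 and 0.54 for KO26 and 0.15 and 0.26 for KO22. Between batches 8995 and 9262 they were -0.86 and -0.76 in KO22 and -0.79 and -1.13 in KO26. For RPE/choroid they were 0.70 and 0.40. Which set had the larger median thus differed between comparisons. These are descriptions with no test of the difference.

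RPE/choroid of Prom1-KO mice was compared with that of WT mice to ask about the genes in situ. The summed level of the 40 genes was 392.1, 375 and 317 CPM in WT and 448, 634 and 432 CPM in Prom1-KO, on a scale set apart from that of the mRPE table. None of the 40 was called higher (0.0% of all genes tested) or lower (0.189% of all genes tested) with edgeR. The log2 fold change was positive in 39 of the 40, with a median of 0.54 against 0.01 for all genes. At an unadjusted p under 0.05 there were 17 members, all positive, against 8.3% of all genes in either direction, and DESeq2 called 1 member, Ifi44. In bulk tissue, fewer cells of a type and less RNA per cell cannot be told apart.

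Ifi44 had the largest fold change, at 3.71, 7.18 and 3.18 CPM in Prom1-KO and 1.58, 1.47 and 1.76 CPM in WT (1.55 ± 0.32, adjusted p = 0.186 with edgeR). Ifit1 measured 8.46, 12.2 and 7.86 CPM against 5.65, 4.53 and 4.20 CPM (0.99 ± 0.21). Irf9 measured 8.93, 10.9 and 8.89 CPM against 6.24, 6.33 and 6.09 CPM, and Irf7 6.81, 10.7 and 7.80 CPM against 4.98, 5.43 and 4.85 CPM. In these 4 genes every Prom1-KO library lay above every WT library without passing the adjusted test. In all, 16 of the 40 were separated in this way (6.73% of all genes), among them also Ifit3, Dhx58, Stat2, Mx1, Mx2, Bst2, Rtp4 and Zbp1, and 0 in the other direction.

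Trim25 and Oasl1, which moved most in KO22 cells, were not called here. Trim25 measured 29.6, 33.5 and 23.2 CPM in Prom1-KO and 30.6, 30.9 and 22.6 CPM in WT (0.04 ± 0.19). Oasl1 measured 2.95, 3.10 and 2.06 CPM and 3.06, 2.69 and 2.55 CPM (-0.03 ± 0.21). Irf1 measured 7.82, 9.83 and 5.31 CPM against 7.63, 7.9997 and 6.14 CPM (0.08 ± 0.24). For each of these genes the groups overlapped. Oas3 measured 1.92, 7.43 and 0.995 CPM against 2.68, 2.33 and 1.43 CPM, so its Prom1-KO libraries lay on both sides of WT.

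**Figure D5:**
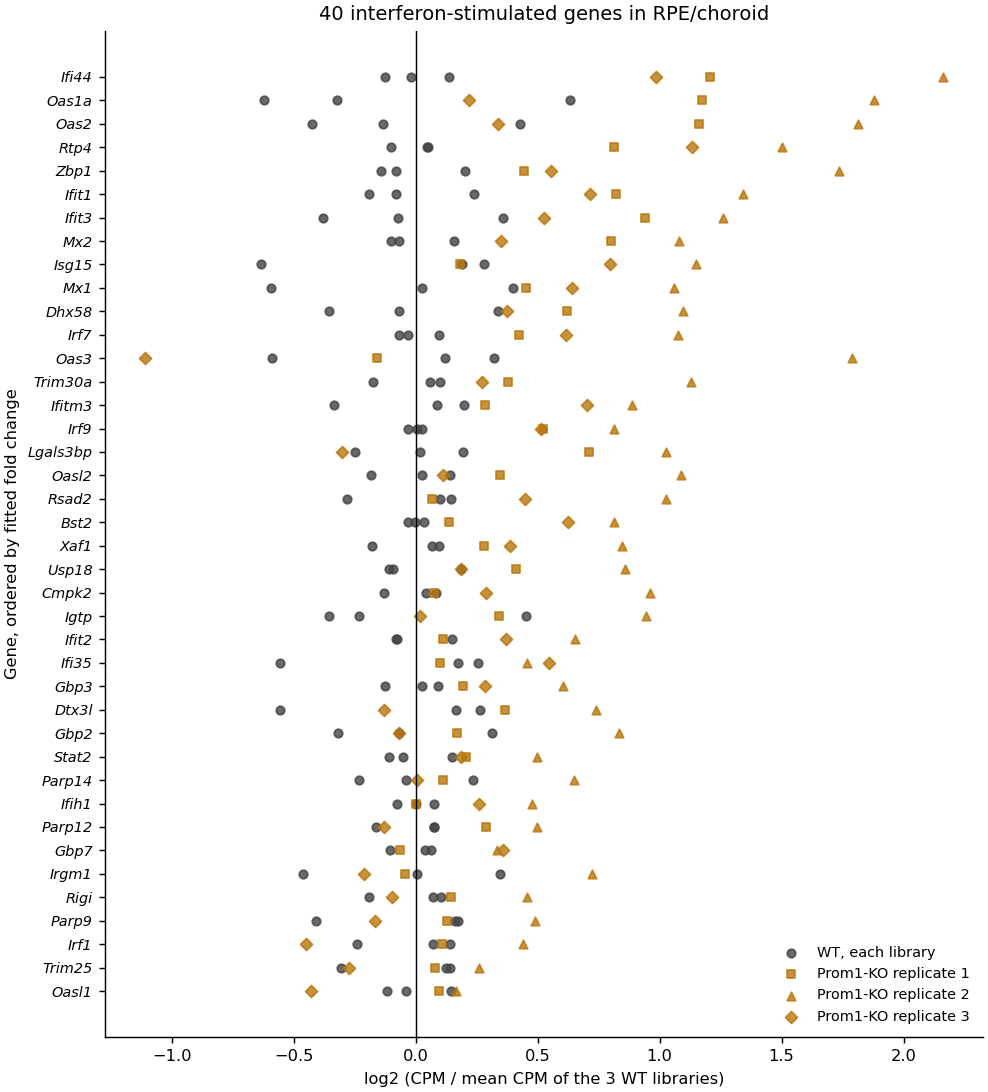
Log2 of the CPM in each RPE/choroid library over the mean of the 3 WT libraries (x axis) for the 40 genes (y axis, ordered by fitted fold change). Grey circles are WT libraries, and the square, triangle and diamond are Prom1-KO replicates 1, 2 and 3. Prom1-KO replicate 2 is the highest library for 38 of the 40 genes.

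Prom1-KO replicate 2 was the highest of the 6 libraries in 38 of the 40 genes. Without it the median log2 fold change was 0.28, 34 of the 40 were positive, and 6 members were at an unadjusted p under 0.05. Prom1-KO replicate 3 had 80.4% of its counts in mitochondrial rRNA, against 55.3 to 63.2% in the other libraries. As a share of all counts, the 40 genes took 0.0479, 0.0681 and 0.0211% in Prom1-KO and 0.0469, 0.0421 and 0.0421% in WT, so on the total-count scale replicate 3 lay below WT while on the TMM scale it lay above. Without replicate 3 the median was 0.61 and 21 members were at an unadjusted p under 0.05.

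RPE markers moved with the groups in the tissue. Summed over 10 of 10 markers they were 422, 523 and 376 CPM in Prom1-KO and 1932, 1216 and 1601 CPM in WT, and Rpe65, Lrat and Rdh5 were called lower. Rpe65 measured 1.13, 5.97 and 4.48 CPM against 279.8, 204 and 287 CPM. Macrophage markers summed to 345, 258 and 348 CPM in Prom1-KO and 304, 385 and 317 CPM in WT. Lymphocyte markers (6 of 10 counted) summed to 5.96, 7.30 and 6.97 CPM and 4.28, 6.31 and 5.04 CPM. Both sums overlapped, and no gene of either list was called (0.0% of all genes higher, 0.189% lower). At an unadjusted p under 0.05 there were 4 of 12 macrophage and 1 of 6 lymphocyte markers (8.3% of all genes). Of the 12, 7 were positive and 5 negative. Ptprc measured 19.8, 18.3 and 24.0 CPM against 11.3, 17.7 and 13.6 CPM. Cx3cr1 measured 2.31, 2.01 and 2.59 CPM against 0.884, 1.13 and 1.27 CPM. In both, every Prom1-KO library lay above every WT library (6.73% of all genes). Endothelial markers summed to 91.7, 82.9 and 70.2 CPM in Prom1-KO and 101, 204 and 133 CPM in WT, and photoreceptor markers to 548, 143 and 20.1 CPM and 85.0, 39.8 and 1121 CPM. Prom1 measured 49.9, 48.1 and 35.5 CPM in Prom1-KO and 48.7, 49.6 and 53.3 CPM in WT, in a tissue of which RPE is one part. The part of these differences in the values of the interferon-stimulated genes was not tested.

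Among related genes in the tissue, 0 of 16 receptor and JAK-STAT genes, 0 of 23 genes of sensing and interferon induction and 0 of 46 other interferon-stimulated genes were called with edgeR. At an unadjusted p under 0.05 there were 1, 4 and 8 of them, against 8.3% of all genes in either direction. The medians of the log2 fold changes were 0.11, 0.14 and 0.42. Cxcl10 measured 1.30, 13.5 and 4.01 CPM in Prom1-KO and 2.85, 0.524 and 1.81 CPM in WT. The groups overlapped, and Prom1-KO replicate 2 was again the highest.

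Some members share sequence or position with other genes, which limits how their reads can be told apart. Ifit3 has the near-identical copy Ifit3b, and Oas1a, the Gbp genes and Mx1 with Mx2 belong to families of close paralogs. The counting may leave out or misplace reads that such copies share. Dtx3l (chromosome 16, 35746881 to 35759521, minus strand) and Parp9 (35758840 to 35792980, plus strand) overlap at their starts on opposite strands. Their values are given as counted, and whether the counting used strand is not given in the sources used here.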

How the data were processed

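Raw gene counts were used as deposited. Per the labels and the processing notes of the submitters, the authors trimmed reads with Trim Galore 0.6.7, aligned them to mm39 with STAR and, for mRPE, took the gene counts that STAR writes and removed genes with few counts. How the RPE/choroid counts were made is known from the processing notes alone, and neither table was normalized. The labels name an NEB stranded mRNA kit and the methods of the study a TruSeq stranded kit. The strand setting of the counting is not given in the sources used here.

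A gene entered a fit when 3 or more of its libraries held 5 or more counts, and the fits were made in edgeR 4.0.16 (R 4.3.3, TMM scaling, quasi-likelihood test, Benjamini-Hochberg adjustment over all genes tested). KO22 was compared with WT in 7 libraries, KO26 with WT and KO22 with KO26 in all 9 mRPE libraries, each with the batch of the library name as a term, and RPE/choroid in 6 libraries without one. Adjusted p-values and SE in the text come from these edgeR fits. DESeq2 1.42.0, other filters and scalings, and leaving out each library were alternatives. The fit with a mean for each group and batch was added after seeing the data. The scripts were tested on simulated data. Promoters were read from GRCm39 at the start of the canonical transcript in the annotation, with pyfaidx 0.9.0.4.

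The members and gene lists were chosen with earlier results of these data known. Values per library are given for members called in a comparison, up to the 12 with the largest change, and for Irf1, Irf7, Irf9 and Stat2 whatever their result, and up to 5 called genes are named per list and direction. Genes given as examples of an uncalled or overlapping pattern were chosen after their values were seen. The study calls the mRPE libraries biological replicates, but the sources used here do not say whether those of a group came from separate cultures, so p-values measure the spread between these libraries, which may be technical. Replicate numbers follow accession order. The result of 1 gene is not reported here.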

Additional observations from a re-analysis of the deposited data

Results flagged for a closer look

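In the WT group of mRPE, the library of batch 8995 lay far from the other 3 WT libraries for Oas3, at 29.9 CPM, and for Zbp1, at 26.3 CPM. By Dixon's test on the 4 WT libraries, 6 of the 40 genes had such a gap, each time with this library as the low one, where chance alone gives about 1 in 20 groups. The summed level of the 40 genes, at 1914 CPM in this library, did not reach the critical value. The genes share libraries and are not independent.

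The log2 fold change against WT differed between the batches, by a test of the difference itself, in 21 members for KO22 and in 18 members for KO26. Batch 8995 holds 1 library a group, and both differences carry the same low WT library, so they are not separate from the gap above. The clones KO22 and KO26 differed from each other in 7 members. KO22 was higher in 1 (7.56% of all genes tested) and lower in 6 (10.7% of all genes tested), so the count is not particular to the members.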

How the results depend on the processing

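With no limit on the fold change, 15 members were called higher and 2 lower in KO22 against WT, 10 were lower in KO22 against KO26, and the genes called in the other lists numbered 40 for KO22 against WT, 12 for KO26 against WT and 39 for KO22 against KO26. With no batch term, 2 members were higher in KO22 and 0 in KO26 (edgeR, 0 at an unadjusted p under 0.05 in KO26), 2 were lower in KO22 against KO26, and the other lists had 1 gene called for KO26 against WT and 8 for KO22 against KO26. In batch 9262 alone, 4 members were higher in KO22. With DESeq2, 11 members and 11 list genes were called for KO26 against WT, and 1 member in RPE/choroid. With WT and KO26 alone in the fit, 16 members and 12 list genes were. Leaving out 1 library gave 4 to 11 members higher in KO22, 0 to 12 in KO26 and 2 to 10 lower in KO22 against KO26, and 2 to 10 list genes for KO26 against WT. The causes of these changes were not tested. Oasl1 and Trim25 kept their calls in all 14 alternatives for KO22 against WT, and with Stat2 in all 12 for KO22 against KO26. Of the 14, the fits without WT replicate 1, without KO22 replicate 1 and in batch 9262 alone rest on the same contrast within batch 9262. They are not separate checks. Called members kept their direction in all of the alternatives. Uncalled members did not all do so when 1 library was left out. In KO22 against WT, 24 to 36 of the 40 were then positive (32 in the main fit), and in KO22 against KO26, 26 to 37 were negative. The positive ones numbered 38 to 40 in KO26 against WT and 34 to 40 in RPE/choroid. In RPE/choroid, Oasl1 turned positive without WT replicate 1 or Prom1-KO replicate 3. No paired analysis was possible because the replicate numbers follow accession order and pair no samples. A batch with 1 library per group gives no spread of its own, and 2 KO26 libraries limit what that comparison could call.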
